A study of Homo sapiens with 3 samples.

Results

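The endothelin genes are the 7 human genes that encode the endothelin receptors (EDNRA and EDNRB), the peptide ligands (EDN1, EDN2 and EDN3) and the converting enzymes (ECE1 and ECE2). They were taken by symbol from the 36601 genes of the count tables, and each was followed in every cell class of 3 droplet single-cell RNA libraries of induced melanocytes (iMels), sampled at day 23 (D23), day 32 (D32) and day 44 (D44) of differentiation. One induction, sequenced as 1 batch, gave both later libraries (D32 and D44), whereas D23 had an induction and a batch of its own. Each day is 1 library, so day, induction and batch cannot be told apart and no test between days was possible. The labels describe the starting cells both as induced pluripotent stem cells and as the H9 embryonic stem cell line, and the libraries were therefore used by day alone. The melanocyte medium that all libraries shared contained Endothelin-3 together with SCF, cholera toxin, bFGF, dexamethasone, the phorbol ester TPA and Wnt3a-conditioned medium. Every cell measured here had therefore been given an endothelin ligand. For the later adherent culture the paper gives this medium with fetal bovine serum and without TPA.

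Endothelins are short peptides cut from longer precursors by furin-like proteases and then by the endothelin-converting enzymes. They signal through G-protein-coupled receptors that act mainly through the Gq family, phospholipase C, calcium and protein kinase C. EDNRB, with its ligand EDN3, is needed by the neural crest cells that form melanocytes and enteric neurons, and mutations of this pair are known in Waardenburg syndrome with Hirschsprung disease. EDNRA, with its ligand EDN1, patterns the neural crest of the jaw in mice and is widely used by vascular smooth muscle and other mesenchymal cells.

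The receptor genes lie on different chromosomes. In GRCh38, EDNRB (ENSG00000136160) spans chr13:77895481-77975529 on the minus strand, and EDNRA (ENSG00000151617) spans chr4:147480917-147544954 on the plus strand. The 250 bases before the RefSeq start of each receptor gene are given here, from RefSeq on GRCh38.p14, because these 2 genes carry the class differences described below. The EDNRB window is chr13:77919683-77919932 and its capitals mark the E-box CATGTG read on the opposite strand. The EDNRA window is chr4:147480847-147481096 and its capitals mark the SOX-type letters ACAAAG, also on the opposite strand.
EDNRB: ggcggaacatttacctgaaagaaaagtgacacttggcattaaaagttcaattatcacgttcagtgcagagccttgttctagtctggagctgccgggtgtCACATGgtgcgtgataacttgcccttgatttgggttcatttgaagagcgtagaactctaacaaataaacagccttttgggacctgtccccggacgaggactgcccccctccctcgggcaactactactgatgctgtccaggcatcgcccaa
EDNRA: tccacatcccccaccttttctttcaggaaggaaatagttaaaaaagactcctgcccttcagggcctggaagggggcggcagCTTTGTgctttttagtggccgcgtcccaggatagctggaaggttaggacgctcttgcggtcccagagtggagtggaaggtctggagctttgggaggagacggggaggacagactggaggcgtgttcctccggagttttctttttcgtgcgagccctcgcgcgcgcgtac
The motifs searched on both strands were the E-box CATGTG and a second E-box, CACGTG (a kind of site that MITF can bind), letters that SOX proteins can bind (ACAAAG, and with 1 base changed ACAATG) and the GC box GGGCGG. The first E-box stood 151 bases before the EDNRB start, and 9.42% of 35116 RefSeq promoter windows of the same length held it. The first of the SOX-type letters stood 169 bases before the EDNRA start and was found in 13.7% of the windows, and the EDNRA window also held GGGCGG at 178 bases before the start, as did 42.6% of windows. The EDNRB window held none of the other 4 motifs searched. GC content was 50.0% in the EDNRB window and 57.6% in the EDNRA window, against a median of 58.0% over all windows. Of the 7 genes, 5 had a promoter window in the table.

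After the cell limits stated by the study, 3796 of 5585 barcodes remained at D23, 6023 of 8927 at D32 and 5811 of 8010 at D44, with medians of 12574, 36375 and 42940 UMIs (unique molecular identifiers, each counting 1 captured RNA molecule) per cell.  D32 and D44 were therefore about equally deep and D23 shallower, so shares of cells are given on cells thinned to 5000 UMIs, which left out 177 cells of D23 and none of the other libraries. Between 2 and 15 cell barcodes were shared by any pair of libraries. Doublet calls covered 1.53% of cells at D23, 7.14% at D32 and 6.40% at D44. Intervals on levels and shares cover counting error only.

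Cells were classed by summed UMIs of marker lists that held no endothelin gene. Melanocyte-like cells had at least 10 UMIs per 10000 of PMEL, MLANA, DCT, TYR and TYRP1 and under 4 of the other lists. Mesenchymal-like cells had at least 4 UMIs per 10000 of COL3A1, COL6A3, LUM, DCN, TWIST1 and PDGFRB, and neural-like cells had at least 4 of ZIC1, ZIC2, MSX2, MAP2, NCAM1, SOX2, NEFM, DCX and POU3F2. Melanocyte-like cells made up 62.7% of cells at D23, 91.8% at D32 and 98.9% at D44 (2379, 5530 and 5745 cells). There were 259, 256 and 14 mesenchymal-like cells and 833, 97 and 5 neural-like cells at the same days. The classes are ranges on a score: at D23, 421 cells lay within 1.5-fold of the melanocyte limit and 264 of the mesenchymal limit. When each library was clustered on its own, the classes lay in different kinds of cluster: 251 of the 259 mesenchymal-like cells of D23 were in a mesenchymal-like cluster, 253 of the 256 of D32 in an unnamed cluster led by KRT8, PITX1 and KRT19, and the 14 of D44 in a melanocyte-like cluster led by NPY, COL1A1 and PRSS56. Of the neural-like cells, 829 of 833 at D23 were in neural-like clusters, and the 97 of D32 were in an unnamed cluster led by CRABP1, DLK1 and IFITM1. Among 10 melanocyte genes left out of the class lists, 9 were higher in melanocyte-like than in mesenchymal-like cells and 9 were higher than in neural-like cells. Of all genes tested, 9.73% and 8.64% were higher in these comparisons. All 8 mesenchymal genes left out of the lists were lower in melanocyte-like than in mesenchymal-like cells, beside 10.3% of all genes.

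EDNRB transcripts were concentrated in melanocyte-like cells and EDNRA transcripts in mesenchymal-like cells, and both patterns recurred over the libraries. UMIs were summed per library and class, and counts per 1000000 (CPM) of each sum are given. In melanocyte-like cells EDNRB stood at 77.2 CPM (95% Poisson interval 74.2 to 80.3) at D23, 151 CPM at D32 and 119 CPM at D44, from 2463, 33677 and 31391 UMIs. In mesenchymal-like cells it stood at 5.30 CPM (3.09 to 8.48), 12.0 CPM (9.85 to 14.4) and 6.57 CPM (1.35 to 19.2) at the same days, from 17, 110 and 3 UMIs. In neural-like cells it stood at 6.67 CPM (5.22 to 8.40) at D23 and 16.7 CPM (11.9 to 22.7) at D32, and the 5 neural-like cells of D44 held 8 UMIs, or 48.2 CPM (20.8 to 95). The melanocyte-like levels of the 3 libraries lay above every mesenchymal-like level, intervals included, and above every neural-like level, although the interval of the D44 neural-like cells reached past the D23 melanocyte-like level.

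A quasi-likelihood test in edgeR over the 8 sums that held at least 10 cells, with the library as a block and Benjamini-Hochberg adjustment over the 15029 genes tested, gave the class differences. EDNRB was 14.4-fold higher in melanocyte-like than in mesenchymal-like cells (log2 fold change 3.85, SE 0.20, adjusted p = 9.33e-05). Within libraries the ratio was 14.6 at D23 and 12.6 at D32. EDNRB was 11.5-fold higher in melanocyte-like than in neural-like cells (log2 fold change 3.53, SE 0.22, adjusted p = 0.000176), with within-library ratios of 11.6 at D23, 9.04 at D32 and 2.47 at D44, the last against 5 cells that were not in the test. Between mesenchymal-like and neural-like cells the EDNRB log2 difference was -0.32 (95% interval -0.89 to 0.25, edgeR adjusted p = 0.553), so the order of these lower classes was not resolved. The 2 comparisons with melanocyte-like cells share the melanocyte-like sums.

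**Figure D1:**
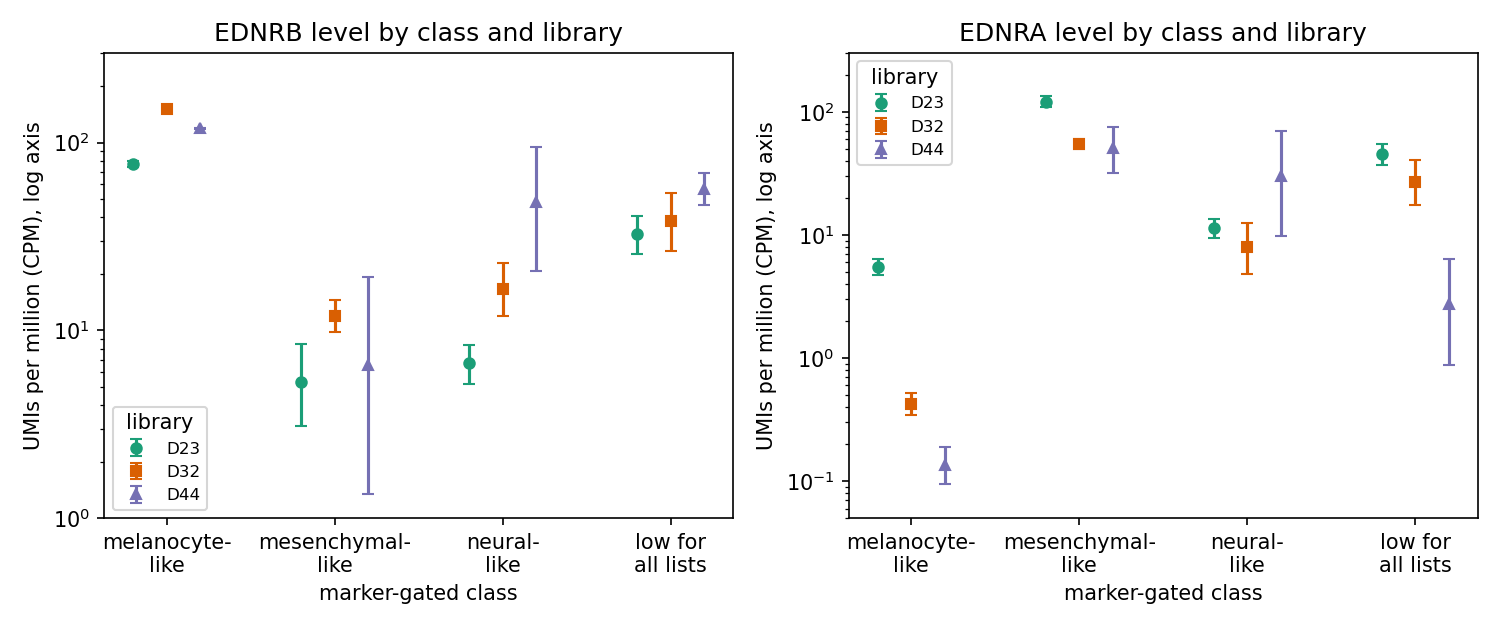
Levels of EDNRB and EDNRA, in CPM on a log axis, in melanocyte-like, mesenchymal-like and neural-like cells and in cells low for all marker lists, with 1 point per library and exact Poisson 95% intervals. EDNRB points of melanocyte-like cells sit between 77.2 and 151 CPM, above all mesenchymal-like points, and EDNRA points of mesenchymal-like cells sit between 50.3 and 121 CPM, above all melanocyte-like points.

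EDNRA had the opposite order. In melanocyte-like cells it stood at 5.48 CPM (4.70 to 6.36) at D23, 0.426 CPM at D32 and 0.136 CPM at D44, from 175, 95 and 36 UMIs. In mesenchymal-like cells it stood at 121 CPM (108.9 to 133), 54.9 CPM (50.2 to 59.9) and 50.3 CPM (31.9 to 75.5) at the same days, from 387, 504 and 23 UMIs. The melanocyte-like level was lower than the mesenchymal-like level by 22 times at D23, 129 times at D32 and 369 times at D44, and the sets of levels did not overlap. EDNRA was 74.1-fold lower in melanocyte-like than in mesenchymal-like cells (log2 fold change -6.21, SE 0.76, edgeR adjusted p = 0.0016).

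Neural-like cells held EDNRA at 11.3 CPM (9.39 to 13.5) at D23 and 7.94 CPM (4.78 to 12.4) at D32, between the other classes. Neither neighbour in that order passed the edgeR test: the log2 difference was 3.78 between mesenchymal-like and neural-like cells (SE 0.88, 95% interval 1.73 to 5.83, adjusted p = 0.0662) and -2.43 between melanocyte-like and neural-like cells (SE 0.80, adjusted p = 0.0716). Both calls depended on the libraries, since without D23 the differences were 3.21 and -4.36, without D32 they were 4.34 and -1.62, and each of these passed. In these fits the neural-like class rests on 1 sum, which is assumed to vary like the other classes. The 5 neural-like cells of D44, which were not in the test, held 5 EDNRA UMIs.

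With these results, 1 of the 7 endothelin genes was called higher and 3 lower in melanocyte-like than in mesenchymal-like cells, against 9.73% and 10.3% of all genes tested (20.1% in either direction). Against neural-like cells 1 was higher and 2 were lower, beside 8.64% and 12% of all genes, and between mesenchymal-like and neural-like cells 0 of the 4 genes tested were called, beside 3.46% of all genes. EDN2, EDN3 and ECE2 had too few UMIs to be tested. The median log2 difference of the 4 genes tested was -3.83 against mesenchymal-like and -2.06 against neural-like cells, beside 0.09 and 0.08 over all genes. Scaling by total UMIs moved the median of all genes in the comparison with neural-like cells to -0.07.

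**Figure D2:**
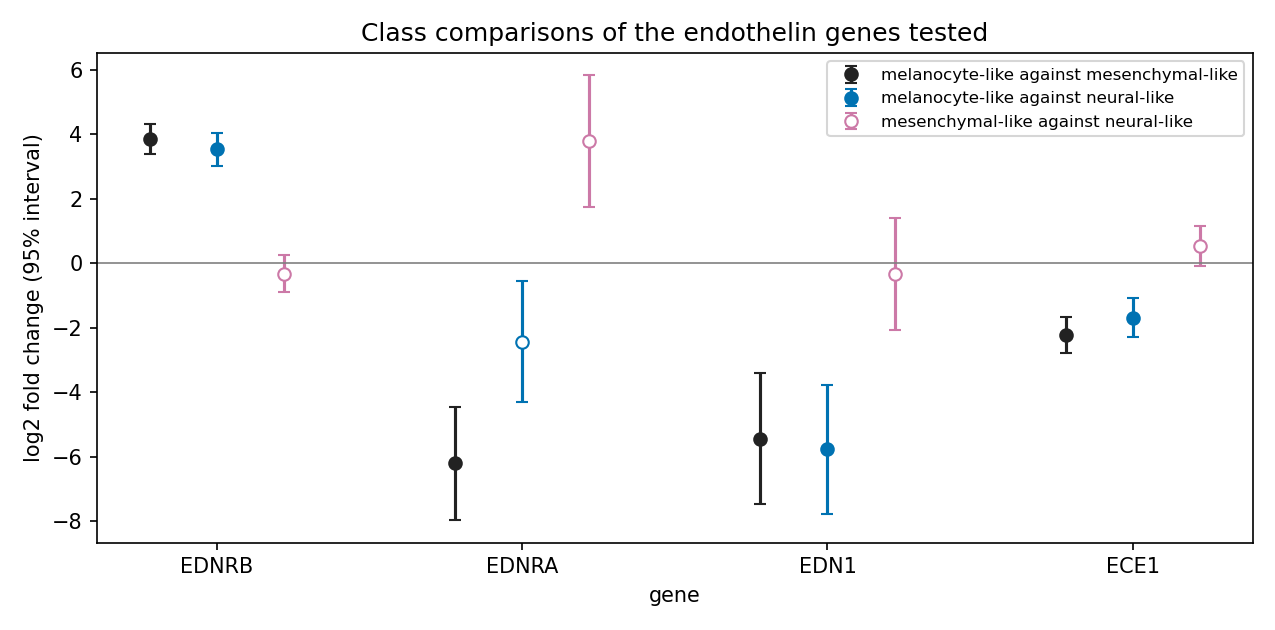
Log2 fold changes of EDNRB, EDNRA, ECE1 and EDN1 in the 3 class comparisons (edgeR, 8 sums of library and class), with 95% intervals as bars and filled points for an adjusted p under 0.05. EDNRB lies above 0 and ECE1 and EDN1 below 0 in both comparisons of melanocyte-like cells, and EDNRA is lowest against mesenchymal-like cells at -6.21.

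The shares of cells with a receptor UMI gave the same order. On thinned counts EDNRB was seen in 31.9% of melanocyte-like cells at D23, 53.4% at D32 and 44.2% at D44, and in 59.0%, 98.4% and 96.9% of them at the deposited depth. Mesenchymal-like cells had an EDNRB UMI in 1.60% of thinned cells at D23, 7.03% at D32 and 0 of 14 cells at D44, which allows a share of up to 21.4% with a UMI. At the deposited depth 5.02%, 28.1% and 14.3% of mesenchymal-like cells had an EDNRB UMI at these days, as did 27.8% of neural-like cells at D32. EDNRA was seen in 2.82%, 0.127% and 0.0348% of thinned melanocyte-like cells at D23, D32 and D44, against 36.8%, 21.5% and 21.4% of thinned mesenchymal-like cells. At the deposited depth, 6.81%, 1.43% and 0.574% of melanocyte-like cells had an EDNRA UMI, against 59.8%, 62.1% and 57.1% of mesenchymal-like cells.

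Read the other way, EDNRB-positive cells were nearly all melanocyte-like. Of thinned cells with an EDNRB UMI, 91.6% were melanocyte-like at D23, 97.9% at D32 and 99.7% at D44, beside 62.7%, 91.8% and 98.9% of all cells. EDNRA-positive cells were more mixed. Of 231 such cells at D23, 92 were mesenchymal-like (39.8%), 66 melanocyte-like (28.6%), 36 neural-like (15.6%) and 28 low for all lists (12.1%), whereas mesenchymal-like cells were 6.82% of all cells. At D32, 55 of 80 were mesenchymal-like (68.8%) and 7 were melanocyte-like (8.75%), and at D44 the 9 such cells included 3 mesenchymal-like cells. At the deposited depth melanocyte-like cells were 162 of the 485 cells with an EDNRA UMI at D23, 79 of 311 at D32 and 33 of 48 at D44. Mesenchymal-like cells were 155, 159 and 8 of them, so melanocyte-like cells were the more numerous at D23 and D44. Of cells with more than 1 EDNRA UMI at that depth, fewer were melanocyte-like: 10 of 149 at D23, 6 of 151 at D32 and 2 of 11 at D44. Against these, 89, 111 and 5 were mesenchymal-like.

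**Figure D3:**
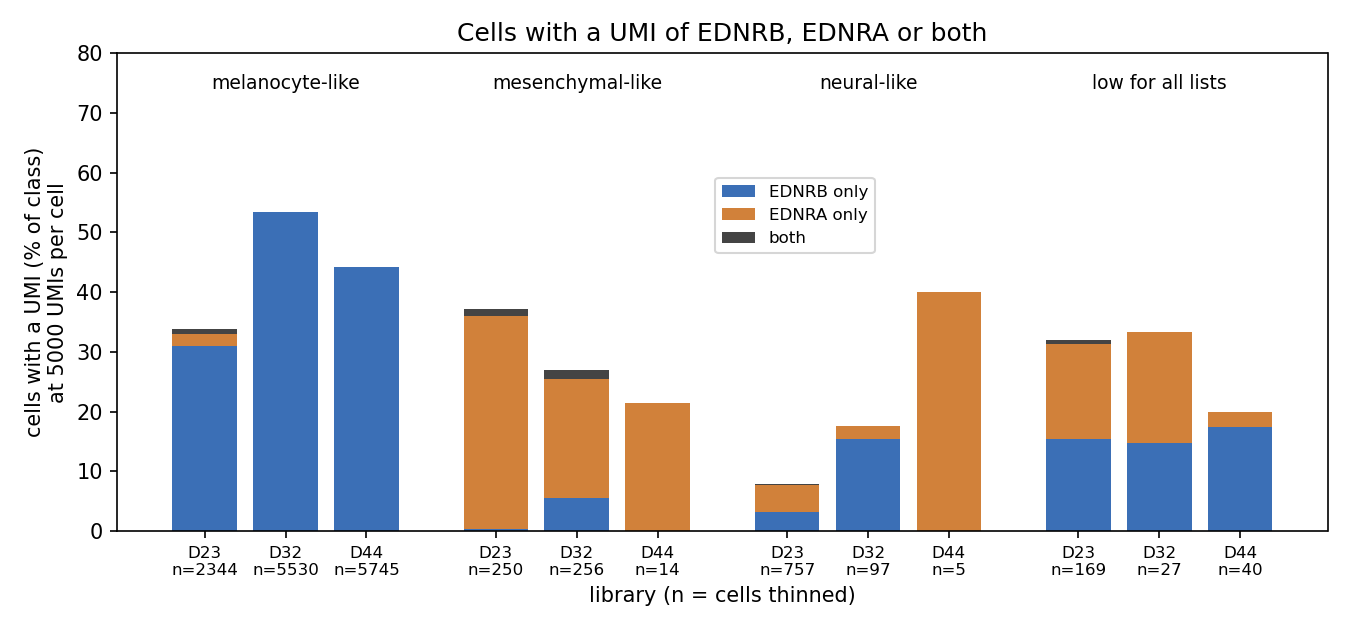
Stacked percentages of cells, thinned to 5000 UMIs each, with a UMI of EDNRB only, EDNRA only or both receptors, for each class and library. Counting cells with both, EDNRB fills most of the bars of melanocyte-like cells (31.9% to 53.4% of cells) and EDNRA those of mesenchymal-like cells (21.4% to 36.8%), and cells with both receptors are at most 1.56% in these classes.

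Cells with both receptors were few on thinned counts, and their shares are given beside the product of the shares of each receptor. In thinned melanocyte-like cells, 21 of 2344 had both at D23 (0.896%, against a product of shares of 0.899%), 4 of 5530 at D32 (0.0723%, product 0.0676%) and 0 of 5745 at D44, which allows up to 0.0522%. In thinned mesenchymal-like cells, 3 of 250 had both at D23 (1.20%, exact 95% interval 0.248 to 3.47%, product 0.589%) and 4 of 256 at D32 (1.56%, product 1.51%). At the deposited depth 49 of the 256 mesenchymal-like cells of D32 had both (19.1%, product 17.5%), as did 11 of 259 at D23 (4.25%, product 3.0%). In D23 cells low for all lists both were seen in 0.592% of thinned cells, beside a product of 2.65%, and in 3.72% of cells at the deposited depth, beside a product of 8.04%. In D32, 40 of the 95 EDNRA UMIs of melanocyte-like cells lay in called doublets, against 1 of 175 at D23.

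The low receptor levels in the opposite class were set beside an assumed 10% of free RNA and beside marker genes of the class where each receptor was high. EDNRB in mesenchymal-like cells, at 5.30, 12.0 and 6.57 CPM, was lower than 10% of its level over each whole library (53.5, 142 and 118 CPM). Taking off 10% of each sum in proportion to the whole library therefore had to leave 0 CPM in this class. The 10% was a setting, and the share of free RNA was not measured. Per 100 UMIs of the melanocyte class list, EDNRB had 2.15 UMIs in melanocyte-like cells and 7.62 UMIs in mesenchymal-like cells at D23. At D32 it had 1.59 and 14.1 UMIs in these classes. The class limits act on this list, so its low sum in mesenchymal-like cells was fixed in advance. The higher ratio there is in part built in and is no measure of free RNA. Per 100 UMIs of the 10 melanocyte genes outside that list, EDNRB had 5.92 UMIs in melanocyte-like cells and 4.86 UMIs in mesenchymal-like cells at D23. At D32 it had 8.38 and 17.1 UMIs in these classes, so the order of the ratios depended on the list at D23.

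EDNRA in melanocyte-like cells was set beside the 8 mesenchymal genes outside the class list in the same way. Per 100 UMIs of these genes EDNRA had 1.03, 0.175 and 0.0979 UMIs in melanocyte-like cells at D23, D32 and D44, against 1.41, 1.76 and 1.08 UMIs in mesenchymal-like cells. Per 100 UMIs of the mesenchymal class list EDNRA had 31.9 UMIs in melanocyte-like cells and 7.0 UMIs in mesenchymal-like cells at D23. The values were close at D32 (3.19 and 3.03 UMIs) and in the opposite order at D44 (1.34 and 5.42 UMIs). The class limits also act on this list, so its low sum in melanocyte-like cells was fixed in advance. The 8 genes summed to 531 CPM in melanocyte-like cells of D23, to 243 CPM in those of D32 and to 139 CPM in those of D44. COL1A2 is among them, and it made up a large part of these sums. In the bins of melanocyte-like cells by pigment level described below, it stood at 297 to 352 CPM at D23, 83.8 to 154 CPM at D32 and 41.0 to 58.5 CPM at D44. The ratios to the 8 genes in melanocyte-like cells therefore rest in large part on COL1A2. The part of free RNA in the low level of either receptor was not tested.

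Over whole libraries EDNRA stood at 16.4, 3.33 and 0.274 CPM at D23, D32 and D44, while the share of mesenchymal-like cells was 6.82%, 4.25% and 0.241%. EDNRB over whole libraries stood at 53.5, 142 and 118 CPM. With 1 library per day these are descriptions of the libraries.

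Within melanocyte-like cells EDNRB followed the pigment level. Cells of each library were split in 4 bins of equal cell number by the UMIs of the melanocyte class list, a split that did not use EDNRB. From the lowest to the highest bin EDNRB stood at 59.5, 71.3, 85.2 and 94.5 CPM at D23, at 140.5, 150.4, 152 and 162 CPM at D32, and at 103, 118, 123 and 132 CPM at D44. The intervals of the end bins did not overlap in any library (54.3 to 65.0 against 87.7 to 102 CPM at D23), and the thinned counts had the highest bin above the lowest in each library as well. The span of EDNRB was widest at D23. The median pigment level of the bins ran from 16.6 to 60.0 UMIs per 10000 at D23, from 48.2 to 145.5 at D32 and from 51.5 to 176.9 at D44.

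ECE1 had the opposite order in the deeper libraries. It stood at 13.6, 11.8, 9.84 and 9.24 CPM from the lowest to the highest pigment bin at D32, and at 14.5, 12.8, 10.5 and 9.34 CPM at D44, whereas at D23 the values of 11.2, 12.7, 12.4 and 11.7 CPM lay within their intervals. EDNRA in the same bins stood at 6.29, 6.33, 4.47 and 4.74 CPM at D23 and at 0.827, 0.385, 0.226 and 0.266 CPM at D32. Called doublets among the cells of the bins numbered 87, 119, 106 and 49 at D32 and 63, 118, 133 and 58 at D44.

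**Figure D4:**
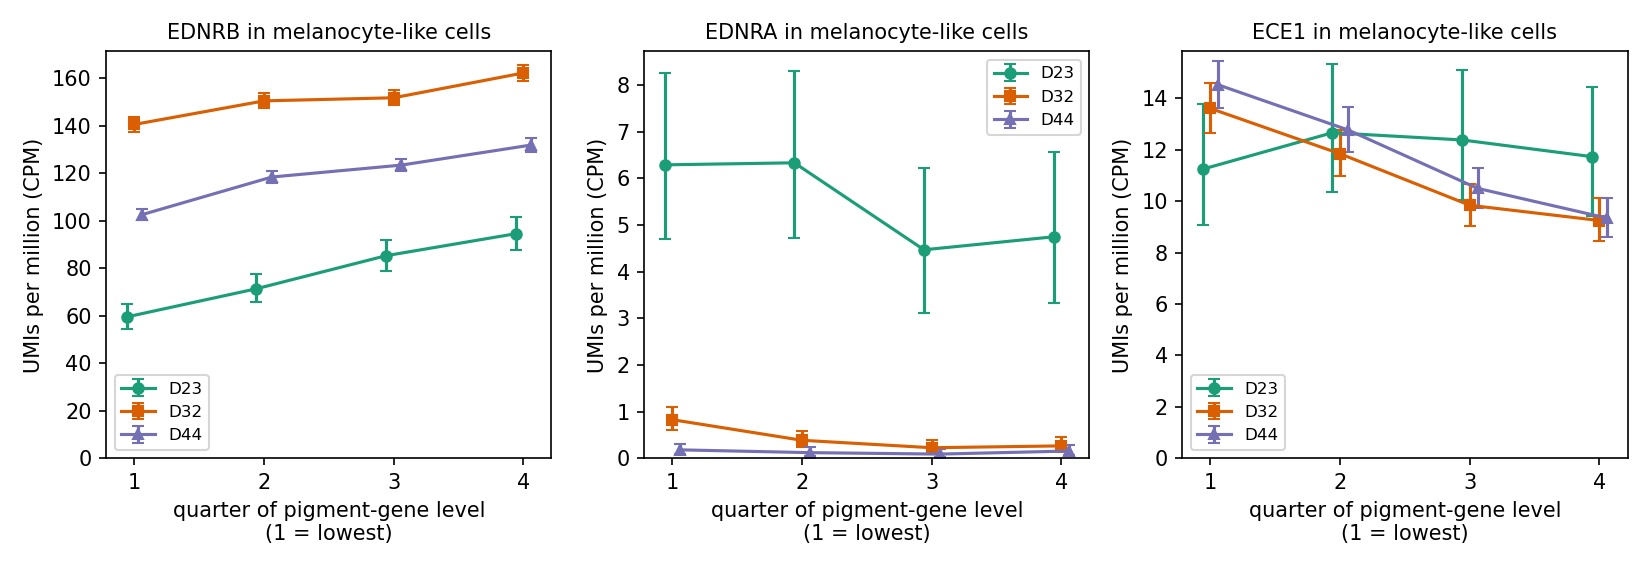
EDNRB, EDNRA and ECE1 levels (CPM) in melanocyte-like cells split in 4 bins by pigment-gene level, for each library, with exact Poisson 95% intervals. EDNRB climbs over the bins in every library (59.5 to 94.5 CPM at D23), and ECE1 declines at D32 and D44 but not at D23.

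Of the ligands, EDN1 was the one found in more than a few cells. EDN1 encodes endothelin-1, best known from endothelial cells. Melanocyte-like cells held 2, 18 and 2 EDN1 UMIs at D23, D32 and D44, mesenchymal-like cells held 2, 56 and 0, and neural-like cells held 31, 11 and 0. At D32 this was 6.1 CPM in mesenchymal-like cells and 4.59 CPM in neural-like cells, and at D23 it was 0.623 and 2.87 CPM. The UMIs came from few cells: 23 neural-like cells of D23 with at most 4 UMIs each, and 16 mesenchymal-like cells of D32 with up to 11. Of the 18 UMIs in melanocyte-like cells of D32, 13 lay in called doublets.

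EDN1 was lower in melanocyte-like than in mesenchymal-like cells (log2 fold change -5.45, SE 0.87, edgeR adjusted p = 0.00499) and than in neural-like cells (-5.78, SE 0.86, adjusted p = 0.00361). The first of these rests on D32, which held nearly all mesenchymal-like EDN1 UMIs: without D32 the log2 fold change was -3.19 with an adjusted p of 0.507. Between mesenchymal-like and neural-like cells EDN1 differed by -0.33 (SE 0.89), and without D23 by 0.50, so the direction was not fixed. EDN2 had 1 UMI at D23, in a neural-like cell, and 9 at D32, of which 6 were in mesenchymal-like cells. EDN3, the main EDNRB ligand of melanocyte precursors, had 2 UMIs at D23 and 3 at D32, of which 4 in mesenchymal-like cells, and 0 at D44. In melanocyte-like cells EDN2 and EDN3 had 0 UMIs in each library.

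The converting enzyme ECE1 was present in all classes. In melanocyte-like cells it stood at 12.0, 11.2 and 11.8 CPM at D23, D32 and D44. In mesenchymal-like cells it stood at 34.6, 71.2 and 78.8 CPM, and in neural-like cells at 34.2 and 46.8 CPM at D23 and D32. No melanocyte-like level overlapped a mesenchymal-like or neural-like level. The interval of the D23 cells low for all lists (16.5 CPM, 11.7 to 22.6) did overlap that of the D23 melanocyte-like cells (10.8 to 13.3). ECE1 was 4.67-fold lower in melanocyte-like than in mesenchymal-like cells (log2 fold change -2.22, SE 0.24, edgeR adjusted p = 0.000947) and 3.23-fold lower than in neural-like cells (-1.69, SE 0.26, adjusted p = 0.00424). Mesenchymal-like and neural-like cells differed by 0.53 (adjusted p = 0.355).

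**Figure D5:**
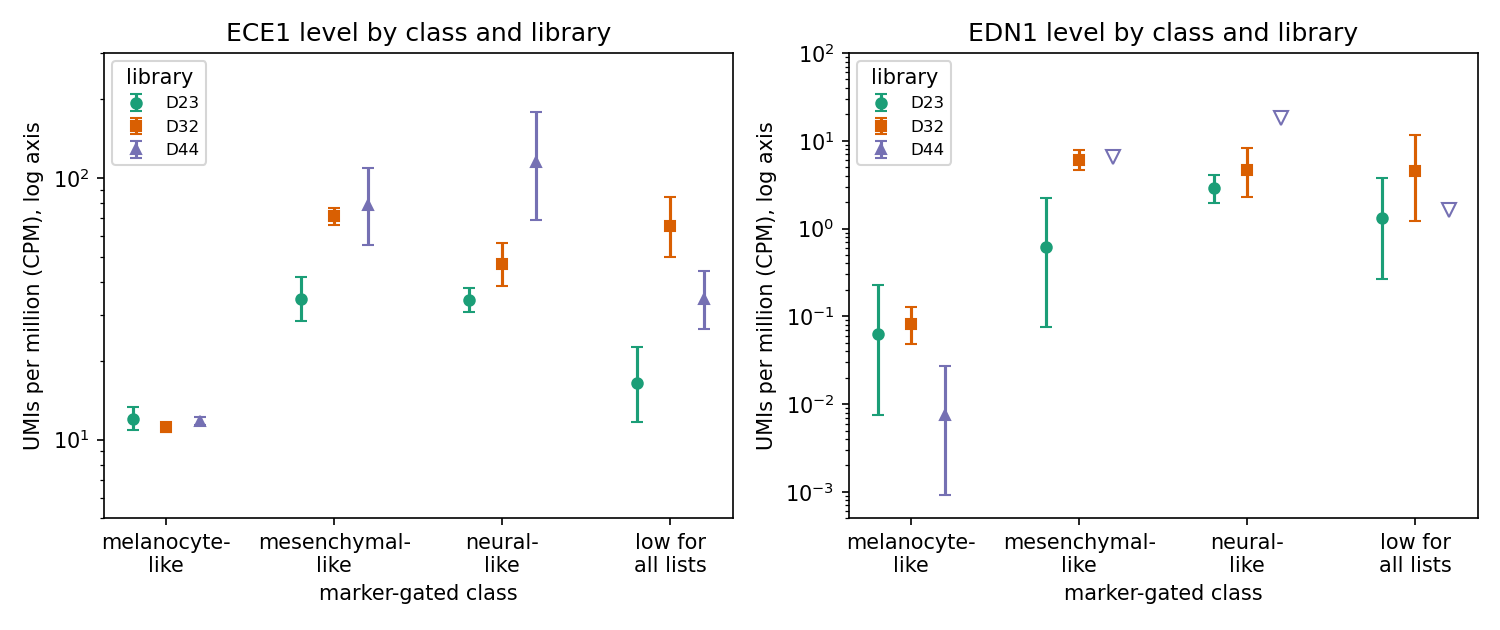
Levels of ECE1 and EDN1 (CPM, log axis) per class and library with exact Poisson 95% intervals, where open triangles mark the limit of 3 UMIs for sums with 0 UMIs. ECE1 of melanocyte-like cells sits at 11.2 to 12.0 CPM below the points of the other classes, although the interval of D23 cells low for all lists overlaps. EDN1 of mesenchymal-like cells of D32 sits at 6.1 CPM.

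ECE2 had 0 UMIs in every barcode. In the GRCh38 annotation used here the whole of ECE2 is overlapped on the same strand by the readthrough gene EEF1AKMT4-ECE2, which is not among the genes of the count tables, and whether reads of ECE2 could be counted was not tested. EDNRB overlaps the antisense gene OBI1-AS1, which had 19, 10 and 11 UMIs in the libraries, and a lncRNA on its own strand with 2, 110 and 38 UMIs, which are small beside the 2463 to 33677 EDNRB UMIs of melanocyte-like cells.

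The genes downstream of the receptors were read in 4 lists, beside 20.1% of all genes called against mesenchymal-like and 20.6% against neural-like cells. Of 8 G-protein genes tested, 0 were higher and 1 lower in melanocyte-like than in mesenchymal-like cells, with a median log2 difference of -0.01 beside 0.09 over all genes. The 1 was GNAI2 (-0.50, adjusted p = 0.0430), and it was not called without D32 (-0.50) or without D44 (-0.45). GNAQ and GNA11, which encode the Gq proteins, had log2 differences of 0.52 and 0.13 that did not pass (edgeR adjusted p = 0.0597 and 0.701). Against neural-like cells 1 G-protein gene was called, GNAQ (0.63, adjusted p = 0.0473), which was not called without D23 (0.45), without D32 (0.70) or without D44 (0.61).

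Of 12 phospholipase C, calcium and protein kinase C genes, 3 were higher and 2 lower in melanocyte-like than in mesenchymal-like cells (median 0.44), and 5 were higher and 1 lower than in neural-like cells (median 1.26). PLCB1, a phospholipase C that Gq activates, stood at 2.22, 1.68 and 1.76 CPM in melanocyte-like cells and at 9.97, 22.5 and 17.5 CPM in mesenchymal-like cells, with log2 fold changes of -3.0 against mesenchymal-like and -3.30 against neural-like cells (edgeR adjusted p = 0.00159 and 0.00134). PRKCD, a protein kinase C isoform, stood at 27.7, 27.2 and 22.8 CPM in melanocyte-like cells, against 7.17, 6.21 and 8.76 CPM in mesenchymal-like cells (1.99, adjusted p = 0.00113). PRKCB, which is known to activate tyrosinase in melanocytes, was higher by 2.74 against mesenchymal-like and 2.21 against neural-like cells (edgeR adjusted p = 0.0126 and 0.0315). With 10% free RNA removed neither PRKCB call passed (4.02 and 2.75), and the call against neural-like cells also did not pass with scaling by total UMIs (2.09) or without the library block (2.32). PRKCA had a log2 fold change of -1.51 against mesenchymal-like cells. PLCB4 had a log2 difference of -0.16 against mesenchymal-like cells that did not pass.

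Of 11 genes of receptor desensitisation and RGS proteins, which switch off G-protein signals, 3 were higher and 3 lower in melanocyte-like than in mesenchymal-like cells (median -0.08), and 1 was higher and 2 lower than in neural-like cells (median 0.13). RGS4 stood at 0.0940, 0.0359 and 0.0530 CPM in melanocyte-like cells, against 9.97, 5.12 and 28.5 CPM in mesenchymal-like cells (log2 fold change -7.62, SE 0.46, edgeR adjusted p = 0.000127). RGS5, also a pericyte marker, stood at 0.313, 0.368 and 0.0493 CPM in melanocyte-like cells, against 22.7, 25.1 and 4.38 CPM in mesenchymal-like cells (-6.11, SE 0.23). Against neural-like cells the log2 fold changes were -9.34 for RGS4 and -7.89 for RGS5. GRK3, a kinase that desensitises receptors, was higher by 2.23 and 2.45 in melanocyte-like than in mesenchymal-like and neural-like cells, and RGS16 by 3.10 against mesenchymal-like cells. RGS2 was lower against mesenchymal-like cells (-2.25, adjusted p = 0.0487), but was not called without D32 (-1.07) or without D44 (-2.70), and GRK2 had 0.23 and did not pass.

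Of 16 genes of the MAP kinase cascade and its targets, 3 were higher and 1 lower in melanocyte-like than in mesenchymal-like cells (median -0.02), and 2 were higher and 2 lower than in neural-like cells (median 0.12), a share of genes near that of all genes. ETV4, a transcription factor induced by the cascade, had the largest difference, -3.23 against mesenchymal-like and -3.86 against neural-like cells (edgeR adjusted p = 0.00694 and 0.00495). Its relative ETV5 was higher by 0.98 against mesenchymal-like cells, with an adjusted p of 0.0504 without D32 (0.93), and MAPK3 had a difference of 0.29 that did not pass.

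Of 10 genes of peptide processing and clearance, 5 could be tested, and 1 was higher and 1 lower in melanocyte-like cells in each comparison. Over all genes, 20.1% were called against mesenchymal-like and 20.6% against neural-like cells. MME, the membrane protease neprilysin that degrades endothelins, stood at 63.9, 40.7 and 55.5 CPM in melanocyte-like cells and 92.5, 270.5 and 59.1 CPM in mesenchymal-like cells, against 7.41 and 11.3 CPM in neural-like cells of D23 and D32. It was higher by 2.98 in melanocyte-like and by 4.09 in mesenchymal-like than in neural-like cells (edgeR adjusted p = 0.0150 and 0.0227). PCSK5, a furin-like protease, was lower in melanocyte-like cells by -3.75 against neural-like and -3.25 against mesenchymal-like cells, the second of which was not called without D23 (-2.25) or without D44 (-3.27). FURIN had -0.17 and -0.51 and did not pass.

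The genes that share Waardenburg or Hirschsprung disease with EDNRB and EDN3 had 7 of 9 members tested. Of these, 3 were higher and 1 lower in melanocyte-like cells in each comparison (median 1.73 against mesenchymal-like cells and 1.68 against neural-like cells). Over all genes, 20.1% and 20.6% were called in these comparisons. SOX10 was higher by 5.18 and 6.16 and MITF by 4.53 and 5.51 against mesenchymal-like and neural-like cells, and both are regulators of melanocyte genes. GFRA1, a GDNF receptor, was lower by -4.13 and -4.82 (edgeR adjusted p = 0.0199 and 0.0114), and PAX3 had 2.35 and 1.47 and did not pass. Of 7 pharyngeal arch genes that depend on EDNRA in mice, 2 could be tested. The 1 that was lower in melanocyte-like than in mesenchymal-like cells, beside 10.3% of all genes, was HAND2. It had 0, 41 and 1 UMIs in melanocyte-like cells and 3, 329 and 4 in mesenchymal-like cells, and 0 in neural-like cells of each library. DLX5 had a log2 difference of 0.12 and did not pass.

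Markers of other cell types that use endothelin receptors were read in the same classes. Over all genes, 20.1% were called against mesenchymal-like and 20.6% against neural-like cells. The 5 smooth muscle markers summed to 4.95, 4.92 and 5.30 CPM in melanocyte-like cells of the 3 days, against sums of 84.4, 61.8 and 26.3 CPM in mesenchymal-like cells, and 4 of them were lower in melanocyte-like cells. ACTA2, smooth muscle actin, stood at 1.32, 3.67 and 4.58 CPM in melanocyte-like cells and at 41.4, 28.0 and 24.1 CPM in mesenchymal-like cells. The 4 pericyte markers summed to 18.4, 8.51 and 3.19 CPM in melanocyte-like cells, against 73.5, 74.4 and 30.6 CPM in mesenchymal-like cells, with 129.9 and 120.3 CPM in neural-like cells of D23 and D32. The 7 endothelial markers summed to 79.5, 93.5 and 90.8 CPM in melanocyte-like cells and to 38.9, 60.9 and 87.6 CPM in mesenchymal-like cells. In neural-like cells of D23 and D32 they summed to 112 and 155 CPM. Of these markers, PECAM1 had 3, 1 and 1 UMIs and CDH5 had 0 in mesenchymal-like cells. KDR was higher in melanocyte-like than in mesenchymal-like cells (3.51, edgeR adjusted p = 0.00631). VWF was lower in melanocyte-like than in neural-like cells (-7.23), with 11 and 24 UMIs in neural-like cells of D23 and D32, and CLDN5 was also called lower. The 3 Schwann cell markers tested were higher in melanocyte-like cells in both comparisons, 0 of 2 tested epithelial markers were called against mesenchymal-like cells and 1 was lower than in neural-like cells, and the 3 pluripotency markers summed to at most 0.345 CPM in the 3 classes compared and 0.434 CPM in D23 cells low for all lists. The part of these cells in the EDNRA and EDN1 levels was not tested.

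The genes whose log2(CPM + 1) was most like that of each endothelin gene over the 8 sums were picked by Pearson correlation, as a description over points that share libraries and depth. For EDNRB they were SORD (r = 0.994), PTTG1 (0.992), RPP25 (0.990), FAM167B (0.988) and CHST9 (0.988), with MITF at 0.927 and SOX10 at 0.831. For EDNRA they were CD248 (0.984), ZYX (0.983), VEGFA (0.983), TFPI (0.981) and FGFRL1 (0.981), with PMEL at -0.911. For ECE1 they were GADD45A (0.993), FAM120AOS (0.991), UNC5B (0.990), MMP23B (0.986) and SRPX2 (0.986), and for EDN1 SNCAIP (0.980), EEF1A2 (0.980), TSPAN2 (0.976), CLEC7A (0.971) and FAM131B (0.971).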

How the data were processed

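The 3 libraries were droplet single-cell libraries, and the deposited matrices hold raw UMI counts per gene and barcode, which the authors made with Cell Ranger 6.1.2 on GRCh38 (the annotation release is not given in the sources used here). The study's cell limits were applied (mitochondrial share at most 10%, with limits on genes and UMIs per library), which left 1 cell more at D23 than the study gives. Cells were classed by marker UMIs per 10000, with at least 3 UMIs of the list, and mesenchymal-like and neural-like cells needed 2 times the other list. Called doublets (Scrublet) were kept and removed only in an alternative. UMI sums per library and class (8 sums of at least 10 cells) were tested with edgeR 4.0.16 (quasi-likelihood, TMM, filterByExpr, library as a block) in R 4.3.3, with a threshold of 0.05 on adjusted p. Only D23 and D32 gave a neural-like sum of that size. Cells are not replicates, and p-values measure whether a difference recurs over 3 libraries, or over D23 and D32 alone for neural-like cells. D32 and D44 came from 1 induction and 1 batch and D23 from its own, so the 3 libraries are not 3 independent cultures. The p-values measure only the spread between the libraries, which also differ in day, and that spread may be technical. Cells were thinned to 5000 UMIs for shares, with exact binomial intervals and, for a count of 0, the limit that 3 cells give, and the tests were tested on simulated data. The endothelin genes and gene lists were chosen with earlier results of these data known. Besides the 7 genes, the text names for each list up to 4 called genes with the largest change and up to 2 not called, and the 5 genes most like each called endothelin gene. Alternatives were DESeq2 1.42.0, scaling by total UMIs, no filter on low counts, no block, other class limits, doublet removal, 1 cell filter, thinning, sums of at least 5 cells, removal of 10% free RNA and leaving out each library.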

Additional observations from a re-analysis of the deposited data

Results flagged for a closer look

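Cells outside the class comparisons also held endothelin transcripts above the level that a count of 0 allows, in the classes with at least 100 cells, both of D23. In the 110 mixed cells of D23, which passed the melanocyte limit together with another list, EDNRA stood at 12.0 CPM (15 UMIs), EDNRB at 31.1 CPM (39 UMIs) and ECE1 at 23.1 CPM (29 UMIs), where 3 UMIs are worth 2.39 CPM, and 34 of these cells were called doublets. In the 188 cells of D23 that were low for all lists, EDNRA stood at 45.6 CPM (105 UMIs), EDNRB at 32.6 CPM (75 UMIs) and ECE1 at 16.5 CPM (38 UMIs), where 3 UMIs are worth 1.30 CPM. In the thinned cells of that group 1 of 169 had both receptors, and 16.6% had EDNRA and 16.0% EDNRB. The group was a mixture by cluster: 75 of the 188 cells lay in the mesenchymal-like cluster of D23, and 37, 19 and 56 in melanocyte-like clusters.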

How the results depend on the processing

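Over the 14 alternatives, EDNRB was called higher in melanocyte-like cells in both comparisons in each one. The log2 fold changes were 3.73 to 4.06 against mesenchymal-like and 3.01 to 3.67 against neural-like cells, apart from the removal of 10% free RNA. That removal gave 15.9 and 5.88, against sums near 0, which is no bound. It had to leave 0 EDNRB UMIs in mesenchymal-like cells, so its call there was fixed in advance and is no check. EDNRA was called lower than in mesenchymal-like cells in all 14 (-7.57 to -5.21), against neural-like cells in 5 of 14, and was called between mesenchymal-like and neural-like cells in 6 of 14. ECE1 was called in all 14 in both comparisons of melanocyte-like cells. EDN1 could not be fitted on thinned counts, and its difference between mesenchymal-like and neural-like cells turned to 0.23 with class limits doubled and 0.50 without D23 (-2.21 without D32). Genes called numbered 3014 against mesenchymal-like, 3098 against neural-like and 520 between mesenchymal-like and neural-like cells. Without a filter on low counts they were 4645, 5111 and 1796. Without the library block they were 1742, 2149 and 73, and no such block could come from replicate numbers, which the labels do not give. Between mesenchymal-like and neural-like cells DESeq2 called 1317, doubled class limits 310 and removal of free RNA 104. Leaving out each library gave 1880 to 3019 (the lowest without D32), 2218 to 2868, and 243 to 1143 (602 without D32, 243 without D44, 1143 without D23). Clusters of each library in place of marker limits left no residual degrees of freedom, so that alternative gave levels but no test. EDN2 and EDN3 had too few UMIs for a test, and the D44 mesenchymal-like and neural-like levels are limited by 14 and 5 cells. Over all alternatives, 48 levels moved beyond their counting interval and 224 did not, and 16 shares moved between thinned and deposited depth while 2 did not.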
